A study of Mus musculus with 2 samples.

Results

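Transitional Ly6C-low monocytes were taken as single cells of mouse ankle synovium that carried transcripts of the Ly6C-low monocyte program together with transcripts of Ly6c2, which encodes the surface protein used to mark classical monocytes. A cell was included when its summed UMIs (unique molecular identifiers, 1 per captured transcript) of Treml4, Ace, Adgre4 and Eno3 reached 4 and it held at least 1 Ly6c2 UMI. Cells with 5 or more Vsig4 UMIs (a tissue macrophage gene), 100 or more S100a8 UMIs (a neutrophil marker gene) or 3 or more UMIs of the proliferation genes Top2a and Mki67 together were left out. The rule selected 143 of 2847 filtered cells, 83 of 1210 at day 7 and 60 of 1637 at steady state. They were set beside the Ly6c2-zero cells, which met the same rule but held no Ly6c2 UMI (64 at day 7 and 106 at steady state). The other population set beside them was the Ly6c2-high cells, which held at least 5 Ly6c2 UMIs and none of the 4 gate genes (245 at day 7 and 70 at steady state).

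Mouse blood monocytes are usually divided into classical cells, which carry much Ly6C and the chemokine receptor CCR2 and enter tissues, and Ly6C-low cells, which patrol vessel walls and depend on the transcription factor Nr4a1. Labelling studies in mice have shown that classical monocytes can convert into Ly6C-low monocytes. Cells with transcripts of both programs are therefore of interest in the joint lining, where monocytes and resident macrophages live side by side.

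The day 7 library came from chimeric mice 7 days after a retro-orbital injection of 200 µL of clodronate liposomes, an agent that kills phagocytes, and the steady-state library from untreated chimeras. All mice were CD45.2 B6 hosts that had received CD45.1 B6 marrow with the ankle shielded, so some host blood-forming and joint cells could remain. Live cells positive for CD45 and CD11b were sorted after gating out CD177, Ly6C, MHC class II, SiglecF, CD64 and Ly6G, and were profiled for RNA and surface antibodies (CITE-seq). There was 1 library per condition, with an unstated number of pooled mice, so no difference below has a replicate check and no test was made. Intervals are 95% exact intervals that cover counting error only. The rule used the RNA of the same cells, and the contrasts between populations are therefore descriptions.

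The surface readouts were counts of DNA barcodes carried by antibodies. The barcodes behind the antibody results given here, apart from CD43, are shown because they, and not the transcripts, were counted for each protein.
Ly6C: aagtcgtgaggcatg
CD11a: agagtctccctttag
CD36: tttgccgctacgaca
MHC class II (I-A/I-E): ggtcaccagtatgat
CD45.1: cctatggacttggac
CD45.2: caccgtcattcaacc

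The 1210 day 7 cells held 10983657 RNA UMIs and the 1637 steady-state cells 17169755, and no cell barcode was shared between the libraries. Transitional cells had a median of 9492 RNA UMIs at day 7 and 10031.5 at steady state. Ly6c2-zero cells were shallower, with 6516.5 at day 7 and 7461 at steady state, and Ly6c2-high cells had 9312 and 9805.5 in the same libraries. Antibody counts differed more between the libraries, with medians per transitional cell of 620 at day 7 and 1610.5 at steady state. Scrublet called 2 of the 83 day 7 transitional cells and none of the 60 steady-state ones doublets, and they were kept. The part of doublets in the mixed transcript content was not tested beyond leaving out the called cells.

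Transitional cells made up 6.86% (5.50 to 8.43) of filtered cells at day 7 and 3.67% (2.81 to 4.69) at steady state. Within the marker gate the share with a Ly6c2 UMI was 56.5% (48.0 to 64.6) at day 7 and 36.1% (28.8 to 44.0) at steady state. At steady state 17 of the 106 Ly6c2-zero cells were fibroblast-marker cells, with at least 10 summed UMIs of Dcn, Col1a1, Col1a2 and Col3a1, against none at day 7 and none among transitional cells. Without them the steady-state share of the gate was 40.3% (32.3 to 48.6). Thinning each cell to 4000 UMIs and applying the rule to what remained lowered both gate shares, to 39.2% at day 7 and 22.7% at steady state. This also cut the gate itself, to 79 and 88 cells. Among the gate cells as first chosen that had at least 4000 UMIs, 68 of 134 (50.7%) at day 7 kept a Ly6c2 UMI after thinning. At steady state 49 of 147 (33.3%) did. The sort removed cells by surface Ly6C, CD177 and MHC class II, so these shares are of what passed the gates and not of the tissue.

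Ly6c2 transcripts were not spread evenly over cell types. A Ly6c2 UMI was found in 1 of 53 macrophages with 5 or more Vsig4 UMIs at day 7 (1.89%, median 8893 RNA UMIs) and in 11 of 406 at steady state (2.71%, median 11119). The gate shares were 56.5% and 36.1% at median depths of 8078 and 8496.5 RNA UMIs, higher than in these macrophages. Whether stray Ly6c2 transcripts add to the gate shares was not tested. Among fibroblast-marker cells 3 of 15 held a Ly6c2 UMI at day 7 and 0 of 67 at steady state, and a count of 0 in 67 allows a share of up to 4.48%. At the edge of the rule, 21 of the 83 day 7 transitional cells and 13 of the 60 steady-state ones held exactly 1 Ly6c2 UMI. The summed gate UMIs were exactly 4 in 13 day 7 and 14 steady-state transitional cells, whose median Ly6c2 count was 5 at day 7 and 6.5 at steady state. Another 29 day 7 and 15 steady-state cells fell just outside with a sum of 3, and their median Ly6c2 count was 5 in each library.

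The rule did not use the surface protein, which was higher in transitional than in Ly6c2-zero cells. Ly6C antibody counts per cell ran from 1 to 145 with a median of 38 in day 7 transitional cells, against 2 to 64 with a median of 12 in Ly6c2-zero cells and 0 to 297 with a median of 53 in Ly6c2-high cells. At steady state they ran from 2 to 399 with a median of 44.5 in transitional cells, against 0 to 61 with a median of 4 in Ly6c2-zero cells and 5 to 168 with a median of 53.5 in Ly6c2-high cells. The distributions overlapped in both libraries, and the raw median of transitional cells was nearer to that of Ly6c2-high cells. Scaled to 10000 antibody counts, the medians were 624 in transitional, 182 in Ly6c2-zero and 1142 in Ly6c2-high cells at day 7. They were 226, 37.6 and 701 in the same order at steady state, so that on this scale the transitional cells lay nearer to the Ly6c2-zero cells in both libraries. A count of at least 20 was reached by 77.1% (66.6 to 85.6) of day 7 transitional cells, against 20.3% (11.3 to 32.2) of Ly6c2-zero and 86.9% (82.1 to 90.9) of Ly6c2-high cells. The steady-state shares were 68.3% (55.0 to 79.7) in transitional, 14.2% (8.14 to 22.3) in Ly6c2-zero and 94.3% (86.0 to 98.4) in Ly6c2-high cells. These cells had passed a sort against surface Ly6C, and macrophages with 5 or more Vsig4 UMIs had a median of 3 counts at day 7 and 1 at steady state. Ly6c1, a close paralog whose reads can be confused with those of Ly6c2, had 0 UMIs in transitional cells of both libraries, and 409 CPM in steady-state Ly6c2-zero cells, or 1.43 CPM without fibroblast-marker cells.

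**Figure D1:**
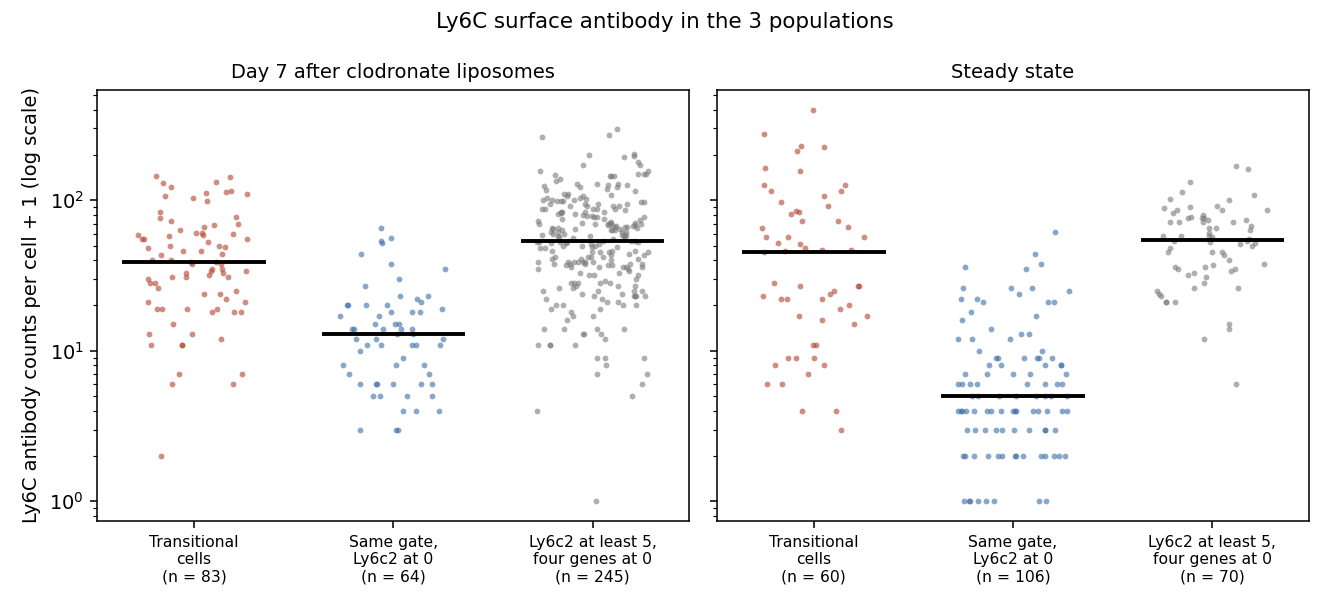
Ly6C antibody counts per cell plus 1, on a log scale, in transitional cells, Ly6c2-zero cells of the same gate and Ly6c2-high cells without the gate genes; each point is a cell and each bar a median. Transitional cells have medians of 38 at day 7 and 44.5 at steady state, above those of Ly6c2-zero cells (12 and 4) and below those of Ly6c2-high cells (53 and 53.5).

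By the CD45.1 and CD45.2 antibodies, 80 of the 83 day 7 transitional cells and 57 of the 60 steady-state ones fell in the donor class, and 1 in each library fell in the host class. At day 7 the donor class also held 62 of 64 Ly6c2-zero and 228 of 245 Ly6c2-high cells. At steady state it held 98 of 106 and 68 of 70 in the same order, so this was not particular to transitional cells. Weakly stained cells can count as donor-class, so these shares are upper estimates of donor origin.

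The label of the population names Treml4, Ace, Ly6c2, Vcan, Hmox1 and Fn1, of which the last-named 3 were not used by the rule. The label was chosen with earlier results of these data known, so the levels of these 3 are a description and not a check. Vcan, a matrix proteoglycan of classical monocytes on chromosome 13 (89655309 to 89743027, mm10), had 128 CPM (UMIs per 1000000 RNA UMIs of the population) in day 7 transitional cells, against 7.32 in Ly6c2-zero and 296 in Ly6c2-high cells. At steady state it had only 17.1 CPM (13 UMIs) in transitional cells, against 21.2 in Ly6c2-zero cells, 1.43 in the Ly6c2-zero cells without fibroblast-marker cells, and 57.0 in Ly6c2-high cells. Vcan was thus higher in transitional than in Ly6c2-zero cells at day 7, and had few UMIs at steady state. Its level was below that of Ly6c2-high cells in both libraries.

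Fn1, the fibronectin gene on chromosome 1 (71585473 to 71653280), had 1048 CPM in day 7 transitional cells, against 300.0 in Ly6c2-zero and 2504 in Ly6c2-high cells. At steady state the Fn1 levels were 732 CPM in transitional, 612 in Ly6c2-zero and 1603 in Ly6c2-high cells. Without fibroblast-marker cells the steady-state Ly6c2-zero level was 157 CPM, and the log2 ratio of transitional to Ly6c2-zero cells was 2.22 in place of 0.26. Fn1 was found in 77.1% of day 7 and 63.3% of steady-state transitional cells.

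Hmox1, the heme oxygenase gene on chromosome 8 (75093618 to 75100593), did not set the transitional cells apart at steady state, with 59.3 CPM, against 61.5 in Ly6c2-zero and 48.7 in Ly6c2-high cells. At day 7 it had 527 CPM in transitional cells, against 351 in Ly6c2-zero and 135 in Ly6c2-high cells. One transitional cell held 36.5% of the 452 Hmox1 UMIs at day 7, and without the richest cell of each population the levels were 340 CPM in transitional and 234 CPM in Ly6c2-zero cells. The log2 ratio of transitional to Ly6c2-zero cells at day 7 was 0.59, under 2-fold, and 0.54 without those cells. Treml4 (an immunoreceptor of Ly6C-low cells), Ace (a peptidase), Adgre4 (an adhesion receptor) and Eno3 (an enolase) were used by the rule. Treml4 was found in 79.5% and Ace in 68.7% of day 7 transitional cells, and in 76.7% and 90.0% at steady state. Against the Ly6c2-zero cells, Fn1 was thus 2-fold or more higher at day 7 and, without fibroblast-marker cells, at steady state. Vcan was higher mostly at day 7, and Hmox1 was under 2-fold in both libraries.

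The levels of genes that separate the reference populations were next read in the transitional cells. These genes were selected for a difference between the references, and the rule takes cells with transcripts of both programs, so an intermediate level follows in part from these choices and the counts are a description. Of 110 genes that were 2-fold or more higher in Ly6c2-high than in Ly6c2-zero cells in both libraries, 101 (91.8%) had an intermediate level in transitional cells of both libraries. Of 144 genes that were 2-fold or more higher in Ly6c2-zero cells, 121 (84.0%) did, and 175 of 185 (94.6%) without fibroblast-marker cells. Over all 2949 genes at or above 50 CPM in either population, taken without regard to how far the references differed, the share was 34.8%.

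Single cells showed the same placement for a list of 23 Ly6C-low and a list of 21 classical monocyte genes, from which the genes of the rule were left out. The Ly6C-low list took a median of 48.8 UMIs per 10000 in day 7 transitional cells, against 106.7 in Ly6c2-zero and 20.5 in Ly6c2-high cells. At steady state the median was 65.0 in transitional cells, against 111.6 in Ly6c2-zero and 22.98 in Ly6c2-high cells. The classical list took 93.2 in day 7 transitional cells, against 35.2 in Ly6c2-zero and 148.3 in Ly6c2-high cells. Its steady-state medians were 89.3 in transitional, 43.7 in Ly6c2-zero and 130.6 in Ly6c2-high cells. Transitional cells spread widely, from 10.9 to 181.9 on the Ly6C-low list and from 6.55 to 191.7 on the classical list at day 7, and overlapped both references.

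**Figure D2:**
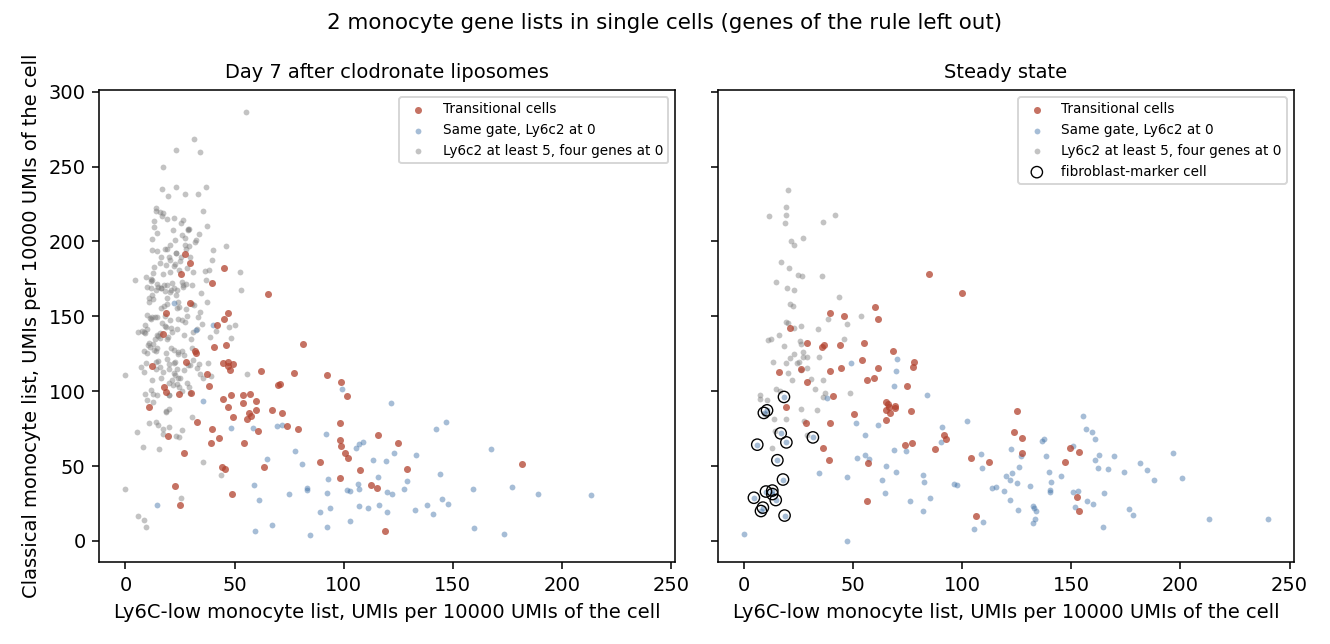
Summed UMIs of the classical list (vertical) against the Ly6C-low list (horizontal), each per 10000 UMIs of the cell, with 1 point per cell; circles mark the 17 fibroblast-marker cells of the steady-state Ly6c2-zero population. Transitional cells fill the space between the Ly6c2-zero cells at the lower right and the Ly6c2-high cells at the upper left, with Ly6C-low list medians of 48.8 at day 7 and 65.0 at steady state.

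Transcripts of both programs were found within the same cell. Itgal, the CD11a integrin chain kept high by Ly6C-low cells, and Ccr2 occurred together in 55.4% (44.1 to 66.3) of day 7 transitional cells, against 20.3% (11.3 to 32.2) of Ly6c2-zero and 61.6% (55.2 to 67.8) of Ly6c2-high cells. At steady state they occurred together in 78.3% (65.8 to 87.9) of transitional, 32.1% (23.3 to 41.8) of Ly6c2-zero and 37.1% (25.9 to 49.5) of Ly6c2-high cells. After thinning to 4000 UMIs the shares were 42.7% in transitional, 13.5% in Ly6c2-zero and 38.1% in Ly6c2-high cells at day 7. At steady state they were 54.2%, 20.5% and 11.6% in the same order. The share was thus above that of Ly6c2-high cells at steady state, whereas at day 7 it was below it with all UMIs and above it after thinning, with intervals that overlapped. Spn and Ccr2 occurred together after thinning in 20.7% of transitional, 11.5% of Ly6c2-zero and 19.0% of Ly6c2-high cells at day 7, and in 28.8%, 18.2% and 8.70% at steady state. For Itgal and Fn1 the thinned shares were 57.3%, 21.2% and 40.3% at day 7 and 42.4%, 11.4% and 13.04% at steady state, in the same order.

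Against Ly6c2-zero cells, the transitional cells carried more classical and interferon-induced transcripts and fewer transcripts of the Ly6C-low program. At day 7, 116 of 3311 genes compared (3.50%) were 2-fold or more higher and 104 (3.14%) 2-fold or more lower. At steady state 92 of 3314 (2.78%) were higher and 266 (8.03%) lower, and without fibroblast-marker cells 74 of 3190 (2.32%) and 79 (2.48%). In both libraries 32 of 2862 genes were higher (1.12%) and 11 lower (0.384%), or 29 of 2905 higher (0.998%) and 19 lower (0.654%) without fibroblast-marker cells.

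Of the classical list, 12 of 18 genes compared at day 7 were 2-fold or more higher and none lower, with a median log2 ratio of 1.39, beside -0.02 over all genes. At steady state 7 of 16 were higher and 1 lower (median 0.91, beside 0.04), and without fibroblast-marker cells 8 of 15 were higher and none lower (median 1.03, beside -0.04). Ccr2, the receptor by which classical monocytes leave the marrow, had 455 CPM in transitional and 195 in Ly6c2-zero cells at day 7, and 682 and 191 CPM at steady state. F13a1, a coagulation factor subunit, had 339 against 68.3 CPM at day 7 and 213 against 86.0 CPM at steady state. Both genes were higher in the transitional cells of both libraries.

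The genes given next were chosen by the size of the smaller of their interval bounds in the libraries, in this same contrast. Their direction thus follows from the choice and is no added support. Thbs1, Cd14 and Ms4a4c also belong to the classical list counted above. Thbs1, the matrix protein thrombospondin 1, had 1326 CPM in transitional and 473 in Ly6c2-zero cells at day 7, and 777 and 114 CPM at steady state. Cd14, a co-receptor for lipopolysaccharide, had 570 against 200.0 CPM at day 7 and 1005 against 310 CPM at steady state. The protease inhibitor gene Slpi had 436 against 159 CPM at day 7 and 192 against 48.0 CPM at steady state. The lysosomal thiol reductase gene Ifi30 had 701 against 302 CPM at day 7 and 624 against 227 CPM at steady state. Ms4a4c, Clec4a2 (a C-type lectin), Ly86 (a partner of a Toll-like receptor homolog) and Lyz2 (lysozyme) were also higher, with log2 ratios of 1.54, 1.81, 1.34 and 1.08 at day 7 and 1.95, 1.52, 1.57 and 1.10 at steady state. The Lyz2 ratio at steady state was 0.79 without fibroblast-marker cells, under 2-fold.

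Of the interferon-induced list, 7 of 9 genes compared at day 7 were 2-fold or more higher and none lower (median log2 ratio 1.16). At steady state 4 of 10 were higher and none lower (0.91), and 3 of 10 (0.74) without fibroblast-marker cells. Isg15, a ubiquitin-like modifier, had 67.7 CPM in day 7 transitional cells, against 14.6 in Ly6c2-zero cells, and 128 against 43.6 CPM at steady state. Irf7, a transcription factor of the interferon response, had 71.2 against 26.8 CPM at day 7 and 203 against 45.8 CPM at steady state. Transitional cells did not stand above the Ly6c2-high cells on this list, where none of 9 genes at day 7 and none of 14 at steady state was 2-fold or more higher, and 2 were lower at steady state.

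Of the Ly6C-low list, none of 22 genes compared at day 7 was higher and 14 were 2-fold or more lower than in Ly6c2-zero cells (median log2 ratio -1.14). At steady state none of 23 was higher and 4 were lower (-0.49), and 9 were lower without fibroblast-marker cells (-0.85). Fabp4, a fatty acid carrier, had 32.7 CPM in day 7 transitional cells, against 244 in Ly6c2-zero cells, and 98.8 against 229 CPM at steady state. Spn, the sialophorin CD43, had 216 against 512 CPM at day 7 and 212 against 381 CPM at steady state. Cd36, a scavenger receptor for lipids, had 72.3 against 188 CPM at day 7 and 159 against 350 CPM at steady state. Cd9 (a tetraspanin), Cyth3 (an exchange factor for ARF proteins), Zfp36l1 (an mRNA decay factor), Bcl2a1d (an anti-apoptotic BCL2 relative whose copies share reads), Fcgr4 (an Fc receptor for IgG) and Pglyrp1 (a peptidoglycan-binding protein) had log2 ratios between -1.67 and -1.11 at day 7. At steady state the log2 ratios of these genes lay between -1.98 and -0.75. Fyn, a kinase of the SRC family, had 52.5 against 188 CPM at day 7 and 72.4 against 141 CPM at steady state. Nr4a1 had 708 against 1332 CPM at day 7 and 1144 against 1133 CPM at steady state. Without fibroblast-marker cells the steady-state Ly6c2-zero level was 1397 CPM. The transitional level was then lower in both libraries, by less than 2-fold in each. Lima1 and Rbbp7, which the same rule named, had log2 ratios of -1.39 and -1.34 at day 7, and of -0.12 and -0.60 at steady state without fibroblast-marker cells. The steady-state ratio of Rbbp7 was 0.35 with the rule applied after thinning to 4000 UMIs.

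Against Ly6c2-high cells, the transitional cells carried more of the Ly6C-low program and less of the classical one. At day 7, 131 of 3264 genes (4.01%) were 2-fold or more higher in transitional cells and 70 (2.14%) lower, and at steady state 156 of 3123 (5.0%) were higher and 61 (1.95%) lower. In both libraries 64 of 2875 genes were higher (2.23%) and 20 lower (0.696%). The Ly6C-low list had 10 of 16 genes higher and none lower at day 7 (median log2 ratio 1.77) and 15 of 20 higher and none lower at steady state (2.13).

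Slc12a2, a sodium, potassium and chloride cotransporter, had 50.2 CPM in day 7 transitional cells and 0 UMIs in the 245 Ly6c2-high cells, and 116 against 1.39 CPM at steady state. Tcf7l2, a transcription factor of the Wnt pathway, had 107 against 7.91 CPM at day 7 and 67.2 CPM against 0 UMIs at steady state. Hes1, a Notch target gene, had 60.7 against 3.52 CPM at day 7 and 90.9 against 5.56 CPM at steady state. Itgal had 712 against 141 CPM at day 7 and 411 against 58.4 CPM at steady state. Havcr2, the receptor TIM-3, had 91.0 against 9.67 CPM at day 7 and 88.2 against 9.73 CPM at steady state. Unlike the genes before it, Havcr2 was not lower in transitional than in Ly6c2-zero cells, which had 78.0 CPM at day 7 and 62.6 CPM at steady state. Cyfip2, Ear2, Pla2g7, Gngt2, Dusp5 and G0s2 were also higher than in Ly6c2-high cells, with log2 ratios between 2.00 and 3.22 at day 7 and between 1.99 and 3.45 at steady state. Of these, Gngt2 encodes a G-protein gamma subunit, Pla2g7 an enzyme that degrades platelet-activating factor and Dusp5 a phosphatase of ERK.

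The classical list had 9 of 19 genes 2-fold or more lower than in Ly6c2-high cells at day 7 and none higher (median log2 ratio -0.90), and 6 of 19 lower and none higher at steady state (-0.82). Ccr1, a receptor for inflammatory chemokines, had 51.3 CPM in day 7 transitional cells, against 245 in Ly6c2-high cells, and 39.5 against 168 CPM at steady state. Ccl2, the ligand of CCR2, had 74.7 against 301 CPM at day 7 and 130 against 387 CPM at steady state. Prtn3, a granule protease made in marrow precursors, had 36.2 against 118 CPM at day 7 and 11.9 against 68.1 CPM at steady state. Mmp8, Ier3, Lgals1 (galectin 1), Vcan, Fn1, F13a1 and the transcript AI839979 had log2 ratios between -1.62 and -0.94 at day 7 and between -3.59 and -1.05 at steady state. Of these, Vcan turned to 0.40 at steady state with the rule applied after thinning to 4000 UMIs. That left 20 transitional cells, so this sign rests on few counts or on the floor used for 0 UMIs. Cd14 had ratios of -0.90 and -0.99, just under 2-fold.

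Within the marker gate these genes differed by the number of Ly6c2 UMIs in the cell, which the rule sets only at 1 or more. Of the day 7 transitional cells 21 held 1, 22 held 2 to 4 and 40 held 5 or more, and of the steady-state cells 13, 20 and 27. Median Ly6C antibody counts in these steps were 18, 34 and 58.5 at day 7 and 14, 48 and 56 at steady state. Fabp4 had 104, 35.1 and 4.21 CPM over the steps at day 7 and 272, 103 and 32.6 CPM at steady state. Spn had 313, 210 and 181 CPM at day 7 and 289, 216 and 181 CPM at steady state. F13a1 had 71.4, 140 and 526 CPM at day 7 and 82.5, 220 and 255 CPM at steady state. Fn1 did not follow every step, with 505, 481 and 1493 CPM at day 7 and 214, 882 and 785 CPM at steady state. Chil3, which encodes a chitinase-like secreted protein, had 538, 566 and 606 CPM at day 7, with no marked step, and 181, 157 and 349 CPM at steady state. Depth moved with the steps at day 7, with medians of 7663, 9157.5 and 10566 RNA UMIs, and its part in the steps was not tested. Cells with 5 or more Ly6c2 UMIs inside the gate still had less F13a1 than the Ly6c2-high cells outside it.

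**Figure D3:**
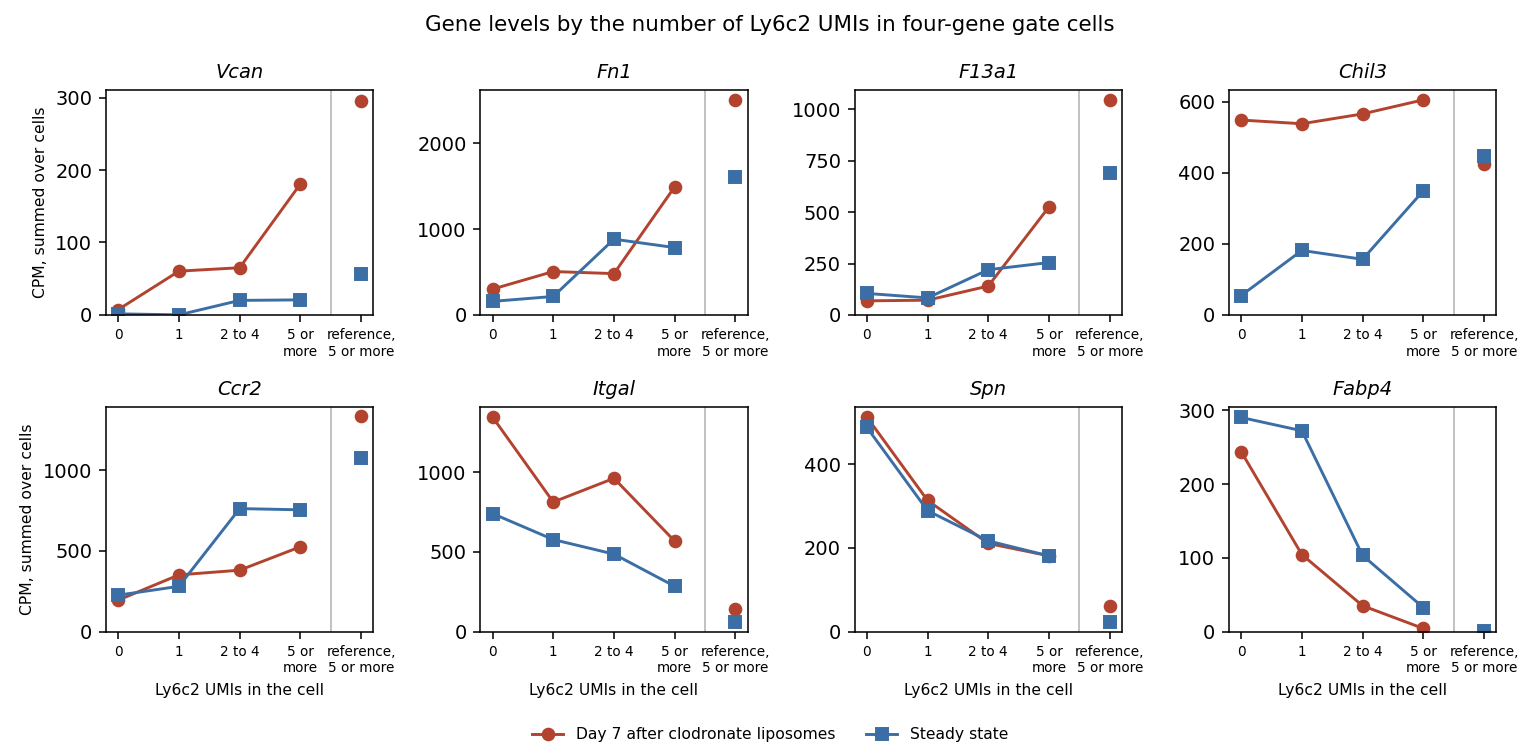
Summed CPM of 8 genes in gate cells with 0 (without fibroblast-marker cells), 1, 2 to 4 and 5 or more Ly6c2 UMIs, and, right of the grey line, in the Ly6c2-high reference without the gate genes; circles are day 7 and squares steady state. Fabp4 declines to 4.21 CPM at day 7 and 32.6 CPM at steady state in the highest step, while F13a1 reaches 526 and 255 CPM there.

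Not every surface protein followed its transcript. Cd36 transcripts were scarcer in transitional than in Ly6c2-zero cells, as given above, and scarcer again in Ly6c2-high cells, at 4.396 CPM at day 7 and 8.34 CPM at steady state. The CD36 antibody ran the other way, with median counts of 6 in transitional, 2 in Ly6c2-zero and 8 in Ly6c2-high cells at day 7 and of 13.5, 1 and 15 at steady state. Per 10000 antibody counts the medians were 99.6, 24.6 and 179 at day 7 and 71.7, 11.4 and 199 at steady state, in the same order of populations. Macrophages with 5 or more Vsig4 UMIs had a median of 0 CD36 counts in both libraries. The counts were low, and the specificity of the antibody cannot be checked in these files. The CD11a antibody, which reads the Itgal product, did follow its transcript at day 7, with median counts of 60 in transitional, 83 in Ly6c2-zero and 24 in Ly6c2-high cells. At steady state the medians per 10000 antibody counts were 973, 1219 and 674 in the same order. The raw steady-state median was higher in transitional (202) than in Ly6c2-zero cells (114.5, or 147 without fibroblast-marker cells), whose antibody totals were lower. The CD43 antibody, which reads the Spn product, separated the populations less than the transcript did. Its medians per 10000 antibody counts were 1933 in transitional, 2380 in Ly6c2-zero and 2225 in Ly6c2-high cells at day 7. At steady state they were 1817, 2405 and 1638 in the same order. Spn had 61.1 CPM at day 7 and 22.2 CPM at steady state in Ly6c2-high cells.

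Transitional cells at day 7 were then set against those at steady state, the comparison that follows phagocyte depletion. Of 3241 genes 102 (3.15%) were 2-fold or more higher at day 7 and 93 (2.87%) lower. Some genes of heme, iron and oxidative-stress handling were higher, and most class II antigen presentation and early response genes compared were lower. Depletion and library preparation cannot be told apart with 1 library per condition.

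Of the list of heme, iron and NRF2 genes, 5 of 11 compared were 2-fold or more higher and none lower (median log2 ratio 0.75, beside 0.08 over all genes). The same list had 2 of 10 higher and none lower in Ly6c2-zero cells (0.57) and 2 of 11 higher and none lower in Ly6c2-high cells (-0.14). Over all genes compared between the libraries, 6.73% were higher and 10.1% lower at day 7 in Ly6c2-zero cells, and 4.16% higher and 2.06% lower in Ly6c2-high cells. Unless stated, Ly6c2-zero values in this and the following contrasts between libraries keep the 17 steady-state fibroblast-marker cells. Hmox1 had 527 CPM at day 7 and 59.3 CPM at steady state, a log2 ratio of 3.15 (2.71 to 3.63), and 2.59 without the richest cell of each library. Slc7a11, the cystine transporter, had 175 and 30.3 CPM (2.53, 1.89 to 3.23) and was found in 39.8% and 21.7% of the cells. Txnrd1, a thioredoxin reductase, had 161 and 56.6 CPM (1.51, 1.004 to 2.04). Gclm, a subunit of the enzyme that starts glutathione synthesis, had 81.7 and 15.8 CPM, but 1 cell held 44.3% of its day 7 UMIs. Fth1, the ferritin heavy chain, had 8768 and 5240 CPM, under 2-fold. Hmox1 was also higher at day 7 in Ly6c2-zero cells, with 351 and 61.5 CPM, and in Ly6c2-high cells, with 135 and 48.7 CPM.

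Of the other genes higher at day 7, Fpr2 and Nr1h3 were spread over many cells. Fpr2, a receptor for formylated peptides, had 118 and 6.58 CPM and was found in 50.6% of day 7 and 8.33% of steady-state transitional cells. Nr1h3, which encodes the oxysterol-sensing receptor LXR alpha, had 56.0 CPM at day 7 and 1.32 CPM (1 UMI) at steady state, a log2 ratio of 5.41 (2.86 to 10.74). It was found in 34.9% and 1.67% of the cells, and had 78.0 and 12.3 CPM in Ly6c2-zero cells. Acp2, a lysosomal phosphatase, had 93.3 and 18.4 CPM, and Clec4d, a C-type lectin, 153 and 30.3 CPM. S100a9, the partner of S100a8, had 85.2 and 9.22 CPM, and Vcan 128 and 17.1 CPM. With the rule applied after thinning to 4000 UMIs, which left 31 day 7 and 20 steady-state transitional cells, the Vcan log2 ratio turned to -0.22. Steady-state Vcan counts were few before thinning, so this sign rests on few counts or on the floor used for 0 UMIs. Of the matrix list 3 of 10 genes were higher and none lower (median 0.69), Vcan, Adam17 and the transglutaminase gene Tgm2. Gdf15, Acta1 and Tnnc2 were also named by the size rule, but 1 cell held 56.1% of the day 7 Gdf15 UMIs and all those of the muscle genes Acta1 and Tnnc2.

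Of the class II list, 5 of 7 genes were 2-fold or more lower at day 7 and none higher (median log2 ratio -2.18). Cd74, the class II invariant chain, had 1480 CPM at day 7 and 6328 CPM at steady state (-2.10, -2.19 to -2.01), and H2-Aa 281 and 1658 CPM (-2.56, -2.77 to -2.36). H2-Ab1 had 196 and 964 CPM, H2-Eb1 127 and 760 CPM, and the peptide-exchange chain H2-DMb1 64.2 and 290 CPM. At least 5 summed UMIs of H2-Aa, H2-Ab1 and H2-Eb1 were held by 12 of 83 day 7 transitional cells (14.5%, 7.70 to 23.9) and 32 of 60 steady-state ones (53.3%, 40.0 to 66.3), called class II cells here. The share of such cells was 18.8% and 22.6% in Ly6c2-zero cells and 7.76% and 17.1% in Ly6c2-high cells at day 7 and steady state. Leaving these cells out lowers the 3 genes that chose them by construction. In what remained H2-Aa had 21.8 and 47.1 CPM (log2 ratio -1.11), H2-Ab1 19.0 and 30.3 CPM (-0.67), and H2-Eb1 only 3 and 1 UMIs (0.28). Cd74 and H2-DMb1, which were not used in the choice, had 752 and 768 CPM (-0.03) and 38.1 and 57.2 CPM (-0.59) there. Within the class II cells, Cd74 had 5866 CPM at day 7 and 9901 CPM at steady state, and H2-Aa 1843 and 2693 CPM. H2-Ab1 had 1262 and 1564 CPM in those cells, and H2-Eb1 868 and 1246 CPM. The 5 genes were lower at day 7 in both reference populations too. List medians were -1.73 in Ly6c2-zero cells, fibroblast-marker cells kept, and -1.81 in Ly6c2-high cells.

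The class II antibody had a median of 2 counts at day 7 and 27 at steady state in transitional cells, or 27.6 and 160.3 per 10000 antibody counts, in cells sorted as negative for it. Type 2 dendritic cells are a class II-bearing myeloid type that the sort could hold. Of 13 of their markers, 10 were detected in day 7 and 12 in steady-state transitional cells, with summed levels of 2209 and 9924 CPM that include Cd74 and the H2 genes, and their part in the difference was not tested. The summed level was 2341 and 6551 CPM in Ly6c2-zero cells and 1467 and 5172 CPM in Ly6c2-high cells. Of the markers outside class II, Tnip3 had 96.8 and 86.9 CPM in transitional cells, Clec10a 15.2 and 25.02 CPM, Dpp4 8.17 and 21.1 CPM, Cd209a 2.33 and 6.58 CPM, Flt3 1.17 and 7.90 CPM and Klrd1 1.17 and 14.5 CPM. Ccr7 was at 0 in both libraries and Kmo at 0 at day 7. Mgl2 and Retnla, which the size rule also named, were at 0 at day 7, and 1 steady-state cell held 78.9% and 77.0% of their UMIs.

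Of the early response and heat shock list, 11 of 18 genes were 2-fold or more lower at day 7 and none higher (median log2 ratio -1.16). Fos, an AP-1 subunit induced within minutes of stimulation or tissue digestion, had 513 CPM at day 7 and 1599 CPM at steady state, a log2 ratio of -1.64 (-1.80 to -1.48). Jun, its partner, had 167 and 544 CPM, and Egr1, an early growth response factor, 8.17 and 80.3 CPM. The HSP70 genes Hspa1a and Hspa1b had 5.83 and 3.50 CPM at day 7, against 56.6 and 75.1 CPM at steady state. The list was also lower in Ly6c2-zero cells, fibroblast-marker cells kept (7 of 17 genes, median -0.98), and in Ly6c2-high cells (3 of 14, median -0.56). Handling was not tested as a part of this difference.

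The Ly6C-low list was lower at day 7 within the transitional cells, with 7 of 20 genes 2-fold or more lower, none higher and a median log2 ratio of -0.68. These were Cd36, Pglyrp1, Fabp4, Ear2, Apoc2, Hpgd and Fcgr4. Itgal, by contrast, had 712 CPM at day 7 and 411 CPM at steady state. In Ly6c2-zero cells the same list had 2 of 23 genes higher and 3 lower, or none higher and 5 lower without fibroblast-marker cells, with medians of 0.23 and -0.09. Of the classical list 4 of 18 genes were higher and none lower (median 0.19), among them Chil3 with 582 and 246 CPM.

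**Figure D4:**
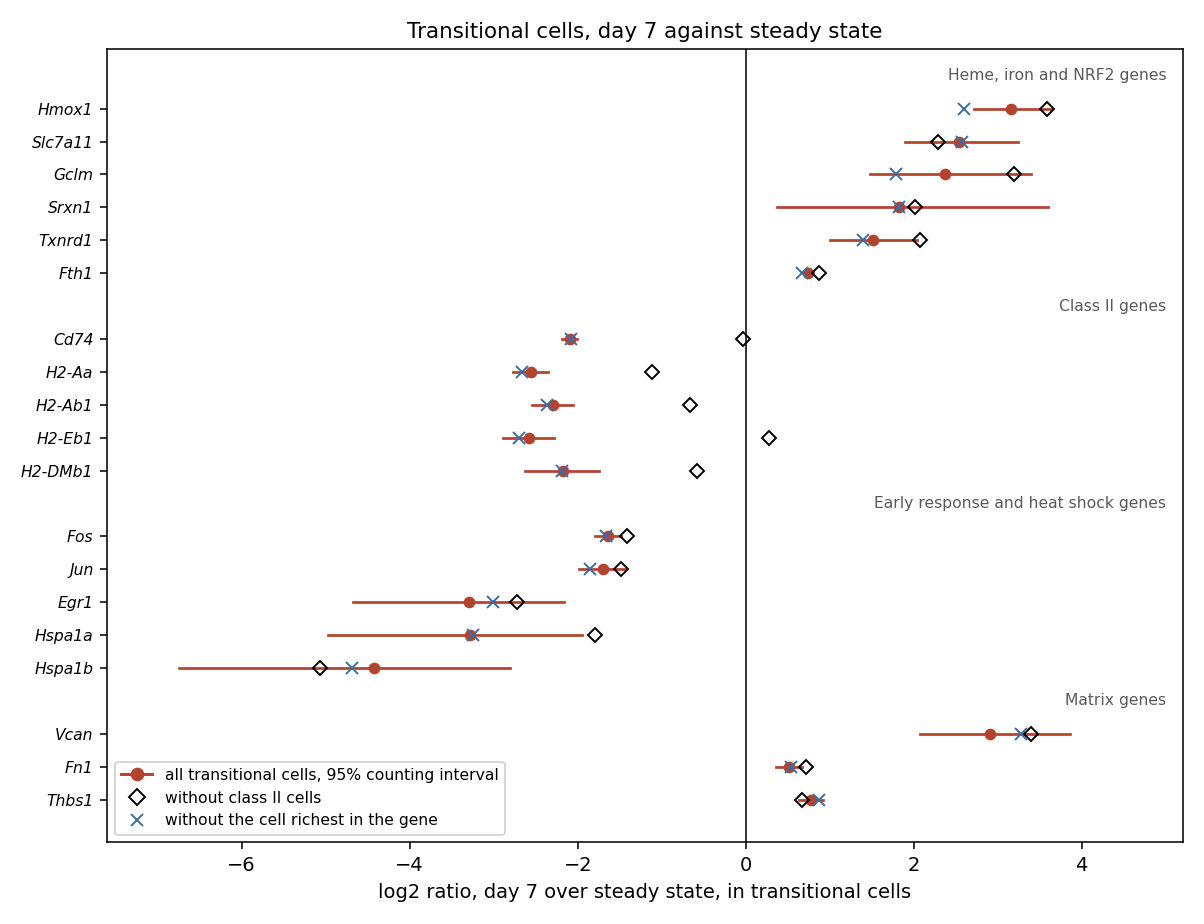
Log2 ratios of summed CPM in transitional cells, day 7 over steady state, for genes of 4 lists; filled circles with bars are all transitional cells with 95% counting intervals, open diamonds leave out class II cells and crosses leave out the cell richest in the gene. Hmox1 stays above 2.5 in all 3, and the class II genes lie nearer to 0 without the class II cells, which were chosen on H2-Aa, H2-Ab1 and H2-Eb1.

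Markers of other cell types than the dendritic cells above ranged widely in the transitional cells. Fibroblast markers summed to 5.83 CPM at day 7 and 10.5 CPM at steady state, against 12018 CPM in steady-state Ly6c2-zero cells. T cell markers summed to 1.17 and 0 CPM, and the 6 mast cell and basophil markers were at 0 in both libraries. B cell markers summed to 73.5 CPM at day 7 and 163 CPM at steady state, and NK cell markers to 10.5 and 39.5 CPM. Granule progenitor markers summed to 42.0 and 14.5 CPM, endothelial markers to 9.33 and 11.9 CPM, and erythroid and platelet markers to 2.33 and 9.22 CPM. Of 13 neutrophil markers 11 were detected at day 7 and 8 at steady state, with summed levels of 395 and 101 CPM, and Ly6g, which defines neutrophils, was at 0 in both. Their summed level was 293 and 80.4 CPM in Ly6c2-zero cells and 986 and 181 CPM in Ly6c2-high cells. The 18 macrophage markers, of which Cx3cr1 and Fcgr1 are also monocyte genes, summed to 797 CPM at day 7 and 1192 CPM at steady state. Of these, Timd4 was at 0 at steady state. Their summed level was 795 and 3829 CPM in Ly6c2-zero cells, fibroblast-marker cells kept, and 769 and 1214 CPM in Ly6c2-high cells.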

How the data were processed

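Per the submitters' processing notes, reads were processed with Cell Ranger 6.1.2 and the mm10 build, and Seurat 4.4.0 is named without a role. The deposited values were raw UMI counts of 32285 genes and 92 antibodies per cell barcode, and no value was normalized by the authors as far as the files show. The cell filter was 500 RNA UMIs, 200 genes and a mitochondrial share of at most 10% (passed by 1210 of 1277 barcodes at day 7 and 1637 of 1912 at steady state). No barcode that failed met the rule otherwise. UMIs were summed over each population and scaled to CPM. Log2 ratios have exact conditional Poisson 95% intervals, shares exact Clopper-Pearson ones. A ratio against 0 UMIs used a floor of 3 counts. Genes needed 50 CPM in either population. The limit for a count of 0 is 3 cells of the total.

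Named genes were the 12 highest and 12 lowest per contrast ranked on the bound of the interval closest to equality, taking for contrasts between populations the library nearer to 0, apart from rule, ribosomal, mitochondrial and unnamed genes. Members of 15 pathway lists, 11 lists of other cell types and the label's markers were named besides. The population, lists and rules were chosen with earlier results of these data known. Origin classes came from a Gaussian mixture of 2 components on log2 of (CD45.2 + 1) over (CD45.1 + 1) antibody counts. Gene positions are those of RefSeq on GRCm38.p6, the assembly of mm10. Lists not described in the report (inflammatory, class I, Fc receptor, survival, adhesion, alternative activation, regulator and cell cycle genes) were computed but are not given. A gene of the classical list is counted in that list but not reported here. Python 3.11.15, numpy 2.4.6, scipy 1.17.1, scanpy 1.11.5 (Scrublet) and scikit-learn 1.9.0 were used. The ratio step was tested on simulated data.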

Additional observations from a re-analysis of the deposited data

Results flagged for a closer look

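For 5 genes the ratio of transitional to Ly6c2-zero cells was 2-fold or more in opposite directions at day 7 and steady state; the difference was not tested. Acta1 had log2 ratios of 2.84 at day 7 and -4.60 at steady state, and Tnnc2 of 3.44 and -4.67, and in each population that expressed these muscle genes 1 cell held at least 98.8% of the UMIs, apart from 2 Tnnc2 UMIs in steady-state transitional cells. Id3 had ratios of 1.30 and -1.43 and Timp2 of 1.49 and -2.76, and without fibroblast-marker cells their steady-state ratios were 0.53 and -0.32. Lyz1, whose reads can be shared with Lyz2, had ratios of -1.63 and 3.09, and 1 cell held 87.0% of its UMIs in day 7 transitional cells and 55.4% in steady-state ones.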

How the results depend on the processing

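No paired analysis was possible because there is 1 library per condition. Of 8 planned and 3 added alternatives, the added ones (leaving out fibroblast-marker cells, class II cells or the cell richest in a gene) were chosen after seeing the data. Applying the rule after thinning to 4000 UMIs gave member shares of 3.28% at day 7 and 1.45% at steady state, gate shares of 39.2% and 22.7%, and, with fewer cells and UMIs per population, larger counts of genes past 2-fold. These were 350 higher and 295 lower than Ly6c2-zero cells at day 7, 405 higher at steady state, 398 higher and 355 lower than Ly6c2-high cells at day 7, 683 and 423 at steady state, and 621 higher and 547 lower for day 7 against steady state. With no CPM minimum, which adds genes of few UMIs, the counts in the same order were 838, 1125, 845 and 1228 (lower, steady state), 1027, 887, 1003, 937, 943 and 961. A Ly6c2 minimum of 2 gave a day 7 share of 5.12%. A gate sum of at least 6 gave shares of 5.21% at day 7 and 2.75% at steady state, and 174 genes lower than in steady-state Ly6c2-zero cells. Leaving out class II cells gave steady-state shares of 2.30% of cells and 25.5% of the gate, 214 higher and 403 lower than steady-state Ly6c2-zero cells, 246 and 113 against Ly6c2-high cells, and 203 and 140 for day 7 against steady state. Leaving out fibroblast-marker cells gave 79 lower than steady-state Ly6c2-zero cells. Signs turned for Rbbp7 against steady-state Ly6c2-zero cells (0.35), Vcan against steady-state Ly6c2-high cells (0.40) and Vcan at day 7 against steady state (-0.22) under thinning, for H2-Eb1 without class II cells (0.28), and for Acta1 without its richest cell (-0.17); H2-Eb1 was used to choose those cells and kept 3 and 1 UMIs, and beyond fewer cells the cause in the others was not tested. Removing doublets, a 5% mitochondrial limit, equal weight per cell and median-ratio scaling left these shares within their intervals and these counts within 1.5 times. Single-gene log2 ratios moved more often: 29 left their counting interval and 133 did not under equal weight per cell, 92 and 62 under thinning, 41 and 119 without class II cells, 32 and 130 at a gate sum of 6, 17 and 145 at a Ly6c2 minimum of 2, 16 and 146 without fibroblast-marker cells, 16 and 145 without the richest cell, 5 and 157 without doublets, 1 and 161 under median-ratio scaling, and 0 and 162 at the mitochondrial limit. Depth limits genes with few UMIs, such as Vcan at steady state.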
